A study of Mus musculus with 6 samples.

Results

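Eye and pigment cell genes in the medulla of the mouse thymus were followed here across 6 mRNA sequencing libraries. The set holds 35 gene symbols, chosen by name as photoreceptor, lens and melanocyte genes, and these matched 36 of the 51810 rows of the deposited series table, because Lim2 is listed under 2 gene models. The 3 WT libraries carried the labels NoCre and P53-WT, and the 3 cKO libraries the label P53-cKO, a conditional deletion of Trp53, the gene of the transcription factor p53. All 6 came from mature medullary thymic epithelial cells (mTEChi in the labels, the class II-high and Aire-rich subset) of mice aged 4 to 5 weeks, with 75000 cells sorted into lysis buffer after enrichment for the epithelial surface protein EpCAM. The labels name neither the Cre driver nor the strain, and do not say whether a library is 1 animal, so a p-value here speaks of the spread among these libraries, part of which may be technical.

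Medullary thymic epithelial cells transcribe genes of many other organs and present the products to developing T cells, a process that depends in large part on the nuclear proteins Aire and Fezf2. Proteins of the eye and of pigment cells are textbook examples of such antigens. Arrestin of the rod (S-antigen, encoded by Sag) is a classic target in autoimmune uveitis, and tyrosinase and related melanosome proteins are targets in vitiligo and in immunity against melanoma. In the eye itself, light closes a cation channel of the rod through rhodopsin, transducin and a phosphodiesterase, the crystallins pack the lens fibre, and the melanosome enzymes make pigment.

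Library totals lay between 45457892 and 50128045 counts. Trp53 itself had 4837 to 5351 counts in WT and 361 to 386 counts in cKO, and the targeted gene went with the label in all 6. The 13 genes listed as marks of the sorted population were all detected, among them Epcam at 458 to 526 CPM (counts scaled to a common library size by the TMM method of edgeR) in WT and 525 to 589 CPM in cKO, and the class II gene H2-Aa at 8049 to 9219 and 8193 to 9259 CPM. Genes listed as markers of other cell types were also detected. The 10 thymocyte markers summed to 71.3 to 134 CPM in WT and 74.9 to 127 CPM in cKO. The 7 red cell markers summed to 83.5 to 90.3 and 57.2 to 82.8 CPM, with the groups only narrowly apart. Of these 7 genes, 2 (28.6%) were themselves lower in cKO without overlap, against 7.28% of all tested genes. B cell markers summed to 69.2 to 82.4 and 75.2 to 86.4 CPM, and fibroblast and endothelial markers to 169.9 to 191 and 164 to 204 CPM. Myeloid markers summed to 518 to 703 and 629 to 924 CPM, most of it from Lyz2, at 435 to 603 and 548 to 828 CPM. No marker of these lists was at 0 in all libraries. Reads from other cells and transcription of these genes by the epithelial cells themselves cannot be told apart here. The part of other cells in the results was not tested. Over all 28543 genes tested, 17 passed an adjusted p of 0.05, 7 higher and 10 lower in cKO.

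No eye or pigment gene passed the test between genotypes, and the differences that were measured were mostly small and below 0. Of the 35 rows that passed the filter on low counts, 0 were called higher and 0 lower in cKO by edgeR's quasi-likelihood test with Benjamini-Hochberg adjustment over all genes tested, where 0.0596% of all tested genes were called (0.0245% higher and 0.035% lower). DESeq2 gave an adjusted p to 23 of the 35 rows and called 0 of those 23, where it called 0.945% of all genes with an adjusted p. The other 12 rows could not be called by it. Limma-voom called 0 of the 35. At an unadjusted p under 0.05, 5 of the 35 (14.3%) were lower and 0 higher, while 4.23% of all tested genes were lower and 4.28% higher. The log2 fold change of cKO over WT was below 0 for 27 of 35 (77.1%), against 51% of all tested genes, and the median was −0.18 against −0.0053. Without cKO library 1, 23 of the 35 lay below 0. In 5 of the 35 every cKO library was below every WT library in CPM, which held for 7.28% of all tested genes, and in 0 every cKO library was above, which held for 7.14% (14.4% in either direction). Trpm1, Dct, Cryba4, Crygs and Pde6h were the 5. The remaining row, Mlana, had too few counts for the test.

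**Figure D1:**
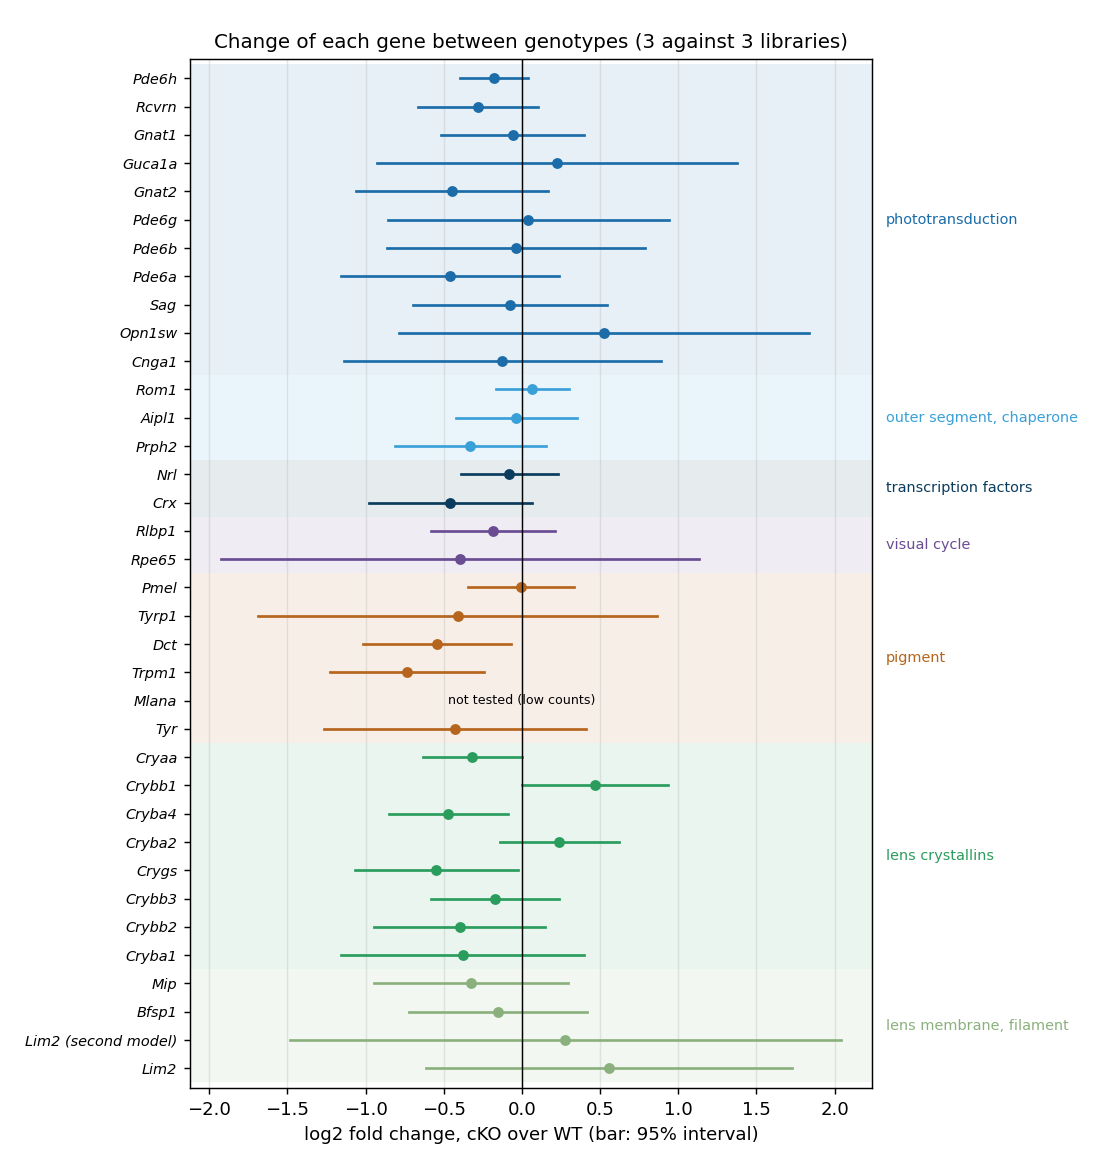
Log2 fold change of cKO over WT for each eye and pigment gene (x axis), with bars for the 95% interval derived from the edgeR test of 3 against 3 libraries. Colours mark the role groups. Of the 35 tested rows 27 points lie left of 0, most bars cross 0, and Trpm1 has the lowest estimate at −0.73.

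The genes were transcribed at levels that differed 219-fold from the highest to the lowest. TPM (counts per kilobase of gene model, rescaled to a fixed sum in each library) is used wherever genes are compared. By mean TPM over the 6 libraries, 10 of the 36 rows were at 10 TPM or more, 13 between 1 and 10, and 13 below 1. The median of the set was 2.62 TPM, against 6.34 for all genes that passed the filter, and 12 of the 36 rows lay above that value. Together they made up 0.0210% to 0.0267% of the TPM of a library. The alpha crystallin gene Cryaa was the highest at 42.1 TPM, followed by Rom1 at 26.9, Pde6h at 20.8 and Mip at 16.7, and the cyclic nucleotide channel gene Cnga1 was the lowest at 0.192 TPM. Over 3 counts were found in every library for 33 of the 36 rows.

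**Figure D2:**
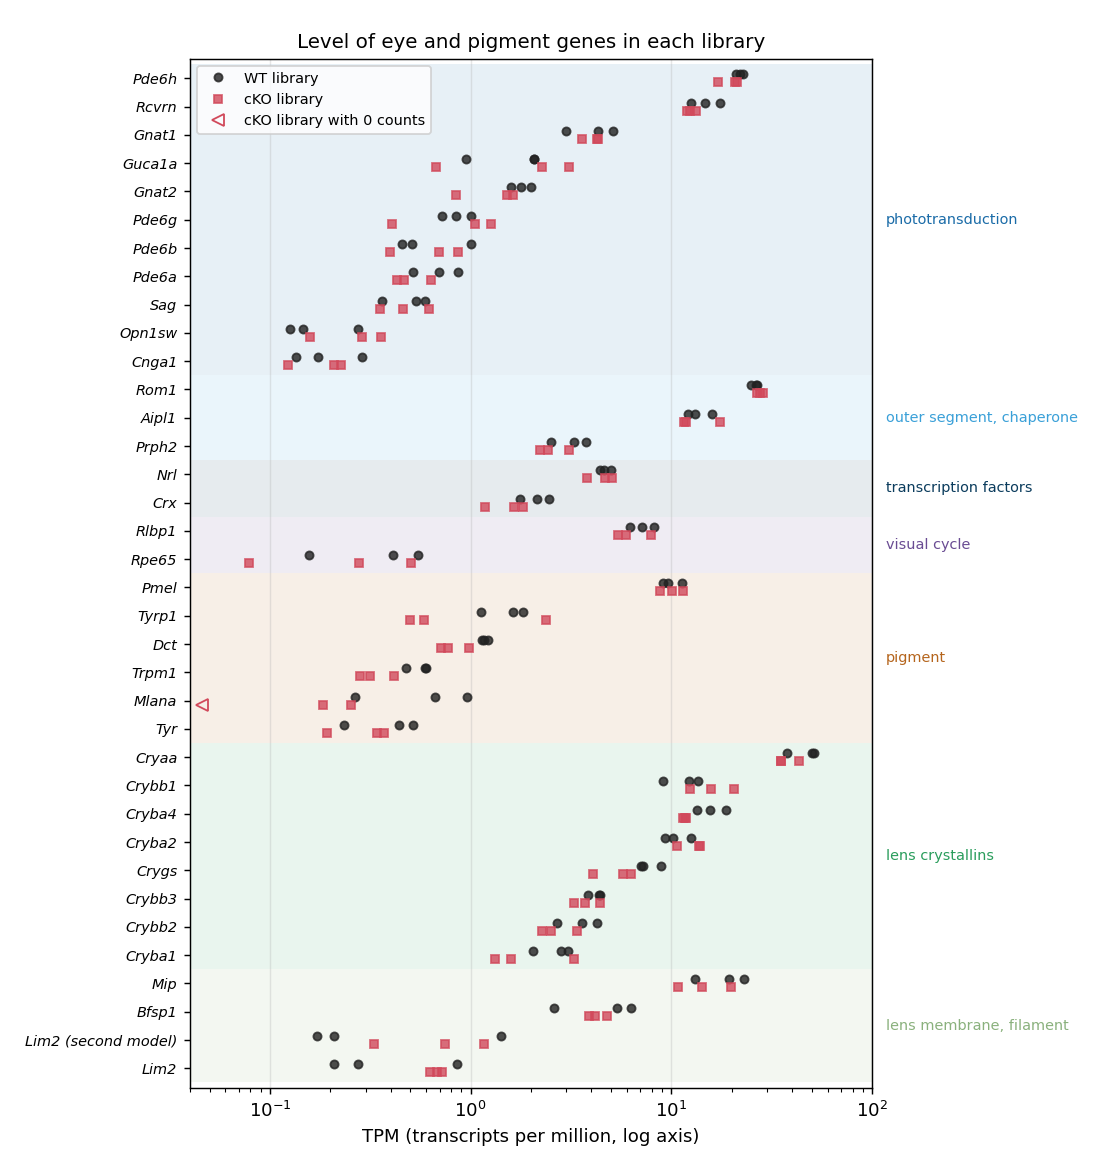
TPM of each eye and pigment gene (log x axis) in the 3 WT libraries (circles) and the 3 cKO libraries (squares), grouped by role; the open triangle at the left edge is a library with 0 counts. Cryaa sits highest at 35.1 to 51.7 TPM, and the genotypes overlap in most rows.

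The level of the set differed from library to library within each genotype. Of the 35 tested rows, 13 had their lowest CPM in cKO library 1 and 12 in cKO library 2, against 2 in cKO library 3. The highest value was in WT library 3 for 12, WT library 2 for 9 and cKO library 3 for 8 rows. The median deviation from the mean of the 6 libraries, in log2(CPM + 0.1), was −0.22 and −0.16 in cKO libraries 1 and 2, but 0.12 in cKO library 3. It was −0.14 in WT library 1 and 0.25 and 0.26 in WT libraries 2 and 3, so the groups overlapped. Over all tested genes the same median stayed between −0.0013 and 0.0092 in the 6 libraries. Summed over the 36 rows, the level was 226, 245 and 267 TPM in the WT libraries and 209.7, 210.3 and 256 TPM in the cKO libraries.

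Aire had 1417, 1301 and 1201 CPM in the WT libraries and 822, 1160.03 and 1159 CPM in the cKO libraries, lowest in cKO library 1 and without overlap (log2 fold change of −0.32 with SE 0.123, adjusted p = 0.516 by edgeR). Fezf2 had 501, 429.7 and 430.03 CPM in the WT libraries and 402, 408 and 404 CPM in the cKO libraries, also without overlap (log2 fold change of −0.16 with SE 0.0799, adjusted p = 0.612 by edgeR). The part of either regulator in the values of the eye and pigment genes was not tested. In libraries made from many cells, fewer cells that transcribe a gene and less RNA per cell cannot be told apart.

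**Figure D3:**
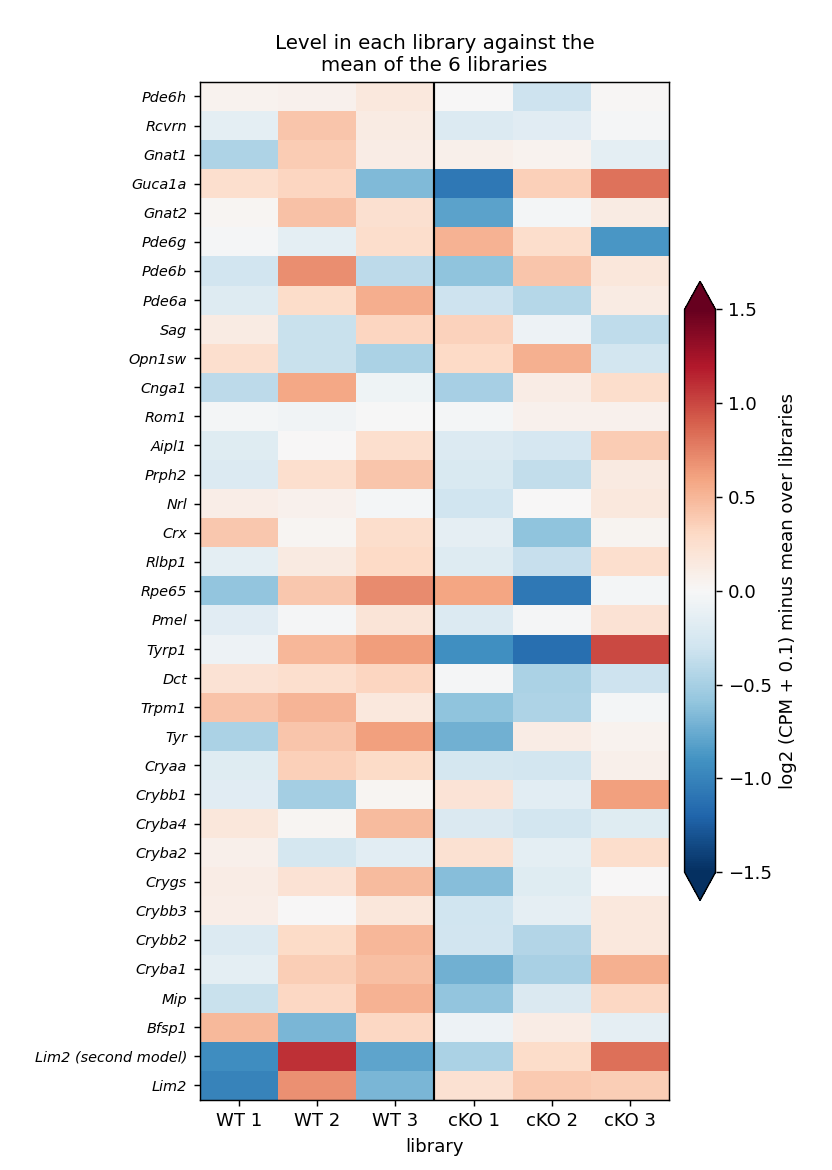
Deviation of each tested eye and pigment gene (rows) from its mean over the 6 libraries (columns), in log2 (CPM + 0.1); red is above and blue below the mean, and the vertical line parts WT from cKO. Blue is most frequent in cKO libraries 1 and 2, where 26 and 23 of the 35 rows lie below their mean, and red in WT libraries 2 and 3 and cKO library 3.

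The spread between replicates was wider than that of the median gene. The median biological coefficient of variation from edgeR was 0.203 over the 35 tested rows and 0.161 over all tested genes, and 18 of the 35 (51.4%) lay above the trend fitted for genes of their abundance, against 32.8% of all tested genes. Tyrp1, with a mean of 80.8 counts, had a coefficient of 0.470 where the trend was 0.255.

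Among the transduction proteins of rods and cones, the amounts of partner subunits were unequal. Gnat1 and Gnat2 encode the alpha subunit of transducin in rods and in cones. Gnat1 had 2.98, 5.10 and 4.32 TPM in the WT libraries and 4.31, 4.27 and 3.59 TPM in the cKO libraries. Gnat2 had 1.58, 2.003 and 1.78 TPM in the WT libraries and 0.846, 1.52 and 1.63 TPM in the cKO libraries. The rod form was 1.88 to 5.096 times the cone form in every library, and both overlapped between genotypes. Pde6a and Pde6b, the catalytic subunits of the rod phosphodiesterase, were low. Pde6a had 0.516, 0.694 and 0.861 TPM in the WT libraries and 0.468, 0.431 and 0.632 TPM in the cKO libraries, and Pde6b had 0.511, 0.999 and 0.456 TPM in the WT libraries and 0.398, 0.865 and 0.697 TPM in the cKO libraries. The inhibitory subunits stood far apart in the opposite order. Pde6g, the rod form, had 0.848, 0.722 and 1.01 TPM in the WT libraries and 1.26, 1.05 and 0.407 TPM in the cKO libraries. Pde6h, the cone form (ENSMUSG00000064330, chromosome 6, 136923832 to 136968865 in mm10), had 22.0003, 21.02 and 22.8 TPM in the WT libraries and 21.2, 17.1 and 20.7 TPM in the cKO libraries, or 16.3 to 50.9 times Pde6g. In CPM, Pde6h had 76.3 ± 2.94 CPM for WT and 67.4 ± 8.42 CPM for cKO (n = 3 libraries each, ± SD) and did not overlap (log2 fold change of −0.18 with SE 0.0996, adjusted p = 0.674 by edgeR).

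The Pde6h value is that of a long gene model. Its exons cover 7846 bases, the model begins 30691 bases upstream of the RefSeq start site, and 136 bases overlap exons of Arhgdib on the opposite strand, which had 5850 to 8025 counts. Strand was ignored in counting, and the files give 1 count per gene, so reads from the upstream exons cannot be parted from those of the cone transcript.

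The remaining genes of the light response spanned the range. Rcvrn, which encodes the calcium sensor recoverin, had 12.6, 17.6 and 14.6 TPM in the WT libraries and 11.95, 12.4 and 13.3 TPM in the cKO libraries. Sag, the rod arrestin gene, had 0.532, 0.360 and 0.592 TPM in the WT libraries and 0.619, 0.460 and 0.353 TPM in the cKO libraries. Cnga1, the rod channel subunit, had 0.135, 0.287 and 0.174 TPM in the WT libraries and 0.123, 0.208 and 0.227 TPM in the cKO libraries. Recoverin RNA was thus well above that of the arrestin and of the channel in each library. Guca1a, an activator of guanylate cyclase, had 2.08, 2.08 and 0.946 TPM in the WT libraries and 0.670, 2.26 and 3.09 TPM in the cKO libraries, with the cKO libraries on both sides of the WT libraries. Of its exon bases 83.7% also belong to Gm50461, so the same reads were counted for both. Opn1sw, the short-wave cone opsin gene, had 0.276, 0.145 and 0.126 TPM in the WT libraries and 0.286, 0.356 and 0.158 TPM in the cKO libraries. It shares 15.5% of its exon bases with Calu on the other strand, which had 6356 to 7702 counts against a mean of 11.8 for Opn1sw, so its reads are uncertain. Of these 11 transduction genes 8 (72.7%, against 51% of all tested genes) had a log2 fold change below 0. The 11 had a median of −0.077 and adjusted p from 0.674 to 0.990 by edgeR.

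Rom1 and Prph2 encode partner tetraspanins of the outer segment rim. Rom1 (ENSMUSG00000071648, chromosome 19, 8927391 to 8929356) had 26.8, 24.98 and 26.3 TPM in the WT libraries and 26.7, 28.7 and 27.7 TPM in the cKO libraries, with the smallest spread of the 36 rows over the 6 libraries relative to its mean. Its difference was small with a narrow interval (log2 fold change of 0.067 with SE 0.108, adjusted p = 0.916 by edgeR, 95% interval −0.17 to 0.30). Prph2 had 2.52, 3.28 and 3.77 TPM in the WT libraries and 2.44, 2.22 and 3.08 TPM in the cKO libraries. The log2 fold change of Prph2 was −0.33 with SE 0.223 (adjusted p = 0.736 by edgeR). Within a library, Rom1 had 6.97 to 12.9 times the TPM of Prph2. Aipl1, a chaperone that assembles the phosphodiesterase, had 12.1, 13.1 and 15.9 TPM in the WT libraries and 11.8, 11.5 and 17.4 TPM in the cKO libraries, with the highest and the lowest values both in cKO libraries.

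The transcription factors that drive these genes in the retina were themselves detected. Nrl, which commits precursors to the rod fate, had 5.01, 4.64 and 4.43 TPM in the WT libraries and 3.78, 4.69 and 5.03 TPM in the cKO libraries (log2 fold change of −0.08 with SE 0.144, adjusted p = 0.927 by edgeR). Crx, the cone-rod homeobox factor, had 2.46, 1.77 and 2.13 TPM in the WT libraries and 1.65, 1.18 and 1.83 TPM in the cKO libraries (log2 fold change of −0.46 with SE 0.240, adjusted p = 0.647 by edgeR). In CPM, 2 of the 3 Crx values in cKO were below all WT values. Of the visual cycle genes, Rlbp1, which encodes the retinaldehyde carrier, had 6.21, 7.16 and 8.20 TPM in the WT libraries and 5.94, 5.43 and 7.93 TPM in the cKO libraries (log2 fold change of −0.18 with SE 0.183, adjusted p = 0.845 by edgeR). Rpe65, the retinoid isomerase gene, had 6, 17 and 23 counts in WT and 20, 3 and 12 counts in cKO libraries, too few to place the genotypes.

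Promoter windows of the genes were searched for short words that retinal and pigment cell regulators are known to bind. RefSeq windows of 300 bases (250 before and 50 after the start site, build GRCm38.p6) were found for 29 of the 35 symbols, in 30 windows. Gnat1, Pde6a, Pde6g, Rcvrn, Pmel and Mlana had none. The word TAATCC, bound by CRX and its relative OTX2, was searched on both strands and occurred in 12 of the 30 windows (40%), and in 7.06% of all 32851 windows. It was in 7 of the 14 photoreceptor and visual cycle windows, 3 of 5 pigment windows and 2 of 11 lens windows. The E-box CATGTG, a word bound by the pigment cell factor MITF, was in all 5 windows of the 4 pigment genes that had one, in 9 of the 30, and in 14.2% of all windows. The E-box CACGTG was in 1 of 30, against 7.15%. A p53 half-site, a search added after the data were seen, was in 2 of 30 windows (6.67%), those of Rpe65 and Crybb3, against 8.36% of all windows. A low density of CG dinucleotides was common to the set: all 30 windows had an observed-to-expected ratio under 0.6, as did 64.2% of all windows, and the medians were 0.204 and 0.384. A match is a description of letters, and no binding was measured.

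The windows of Crx and Aipl1 show the photoreceptor word, each with 2 matches. The 250 bases before the start site are printed from 5′ to 3′ on the strand of the gene, with TAATCC or its reverse complement in capitals. The second Aipl1 match lies after the start site. Both windows are on the minus strand, Crx at chr7:15879956-15880205 and Aipl1 at chr11:72037510-72037759.
Crx: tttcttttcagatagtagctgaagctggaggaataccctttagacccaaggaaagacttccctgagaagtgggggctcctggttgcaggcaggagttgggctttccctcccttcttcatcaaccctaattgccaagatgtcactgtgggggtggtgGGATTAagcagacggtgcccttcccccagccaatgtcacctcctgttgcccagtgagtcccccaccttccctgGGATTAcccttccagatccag
Aipl1: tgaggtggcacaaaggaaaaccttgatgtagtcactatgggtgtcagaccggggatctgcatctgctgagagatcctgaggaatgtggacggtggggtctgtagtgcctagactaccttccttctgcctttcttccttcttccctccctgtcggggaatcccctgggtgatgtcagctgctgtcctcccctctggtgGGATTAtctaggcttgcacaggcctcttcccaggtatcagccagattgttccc
Their genes had means of 1.84 and 13.7 TPM, so a gene with 2 matches could be low or high in the set.

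Among the role groups of the set, the pigment genes had the lowest median difference, −0.43 over the 5 tested. All 5 were below 0, as were 51% of all tested genes, and none passed. The low median did not extend to the 11 other pigment cell genes, from the list of related genes. Their median was −0.023, with 7 (63.6%) below 0 and 4 above. In 2 of the 5 members every cKO library was below every WT library, which held for 7.28% of all tested genes. Trpm1, a channel gene of melanocytes and of retinal ON bipolar cells (ENSMUSG00000030523, chromosome 7, 64153835 to 64269775), had 3.77, 3.998 and 3.13 CPM in the WT libraries and 1.80, 2.0002 and 2.74 CPM in the cKO libraries. All WT libraries were above all cKO libraries, and the means were 3.63 ± 0.450 CPM for WT and 2.18 ± 0.496 CPM for cKO (n = 3 libraries each, ± SD), 1.66-fold lower. This was the smallest p of the set (log2 fold change of −0.73 with SE 0.228, adjusted p = 0.394 by edgeR, 95% interval −1.23 to −0.24). In length-corrected terms it was low, at 0.447 TPM.

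Dct, which encodes dopachrome tautomerase of the melanosome, had 2.97, 3.05 and 3.21 CPM in the WT libraries and 2.52, 1.80 and 2.02 CPM in the cKO libraries, again without overlap (log2 fold change of −0.54 with SE 0.218, adjusted p = 0.536 by edgeR). Mlana, the gene of the melanoma antigen MART-1, had 14, 6 and 22 counts in WT and 4, 0 and 6 counts in cKO libraries. The lowest WT library and the highest cKO library both had 6 counts, and only the scaling to library size parts them, at 0.127 and 0.120 CPM. The count of 0 in cKO library 2 allows up to 0.0645 CPM. With no filter its log2 fold change was −2.05 (SE 0.936, edgeR adjusted p = 0.625). Dct and Mlana were chosen for this description after their values were seen. Pmel, which encodes the fibrils of the melanosome, had 9.13, 9.58 and 11.3 TPM in the WT libraries and 8.81, 10.1 and 11.5 TPM in the cKO libraries, with both extremes in cKO (log2 fold change of −0.0058 with SE 0.156, adjusted p = 0.996 by edgeR, 95% interval −0.34 to 0.33). Pmel shares 4.58% of its exon bases with Dgka and 1.48% with Cdk2.

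Tyr and Tyrp1, the tyrosinase and its related enzyme, spread widely within each genotype. Tyr had 33, 67 and 80 counts in WT and 28, 52 and 54 counts in cKO libraries. Tyrp1 had 63, 99 and 112 counts in WT and 34, 28 and 149 counts in cKO libraries, lowest in cKO libraries 1 and 2 and highest in cKO library 3. Both extremes of Tyrp1 were thus in cKO. Its log2 fold change was −0.41 over all 6 libraries (edgeR adjusted p = 0.894). It was −0.088 without cKO library 1, −0.049 without cKO library 2 and −1.53 without cKO library 3, with edgeR adjusted p of 0.988, 0.997 and 0.215. Without WT library 3 it was −0.26. Leaving out any of these 4 libraries thus moved the estimate by over 1.5 times.

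Pigment cells have Mitf as their master transcription factor. It is not among the 35 symbols and was in a list of related genes. Mitf had 6.39, 6.13 and 5.83 CPM in the WT libraries and 3.89, 4.11 and 4.38 CPM in the cKO libraries, without overlap (log2 fold change of −0.57 with SE 0.163, adjusted p = 0.339 by edgeR), the smallest p of that list. Sox10, which marks both pigment and Schwann cells, had 5.05, 5.67 and 7.02 CPM in the WT libraries and 4.82, 5.80 and 6.999 CPM in the cKO libraries, which overlapped. The 11 pigment cell genes of the related list, with Mitf and Sox10 among them, had a median log2 fold change of −0.023. Of these, 7 were below 0 and 4 above. The 7 markers of Schwann and neural crest cells were all detected. They summed to 232 to 247 CPM in WT and 249.2 to 286 CPM in cKO, without overlap and higher in cKO. The 6 pigment cell markers (Mitf, Sox10, Mlana, Tyr, Dct and Pmel) summed to 24.4 to 29.7 and 20.7 to 26.3 CPM. The part of pigment cells or their precursors in these values was not tested.

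**Figure D4:**
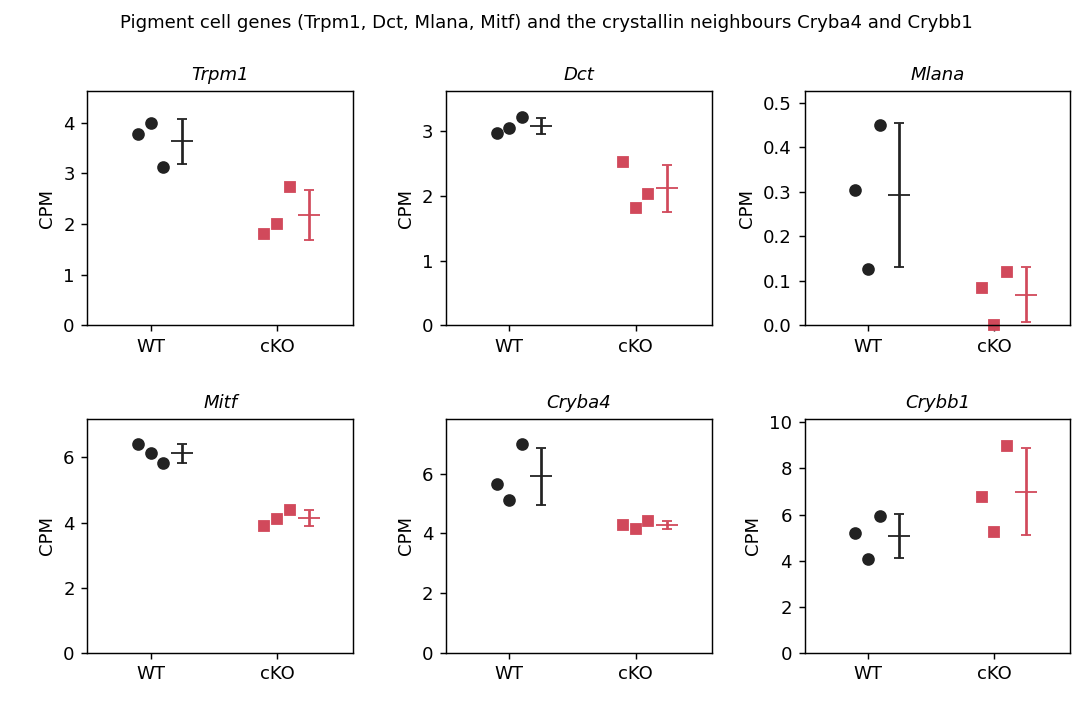
CPM of 4 pigment cell genes and 2 neighbouring crystallin genes in the 3 WT libraries (circles) and the 3 cKO libraries (squares), on axes that start at 0; the bars give the mean and SD of each group. Trpm1, Dct, Mitf and Cryba4 do not overlap between genotypes, Crybb1 does, and for Mlana the nearest WT and cKO points are both 6 counts, parted only by library scaling.

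The pigment windows below are shown for the E-box they have in common, CATGTG or its reverse complement, in capitals together with CACGTG and TAATCC where present. The 3 words did not overlap each other. Trpm1 has 2 start sites on the plus strand, at chr7:64153585-64153834 and chr7:64185209-64185458. In the second window its CATGTG match lies after the start site and the capitals mark CACGTG. Dct is at chr14:118052247-118052496 and Tyr at chr7:87493513-87493762, both on the minus strand.
Trpm1 first start: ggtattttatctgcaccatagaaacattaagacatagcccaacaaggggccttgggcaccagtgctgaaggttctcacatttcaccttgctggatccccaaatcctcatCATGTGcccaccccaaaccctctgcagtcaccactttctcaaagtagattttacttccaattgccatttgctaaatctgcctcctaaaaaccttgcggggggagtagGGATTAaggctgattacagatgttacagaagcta
Trpm1 second start: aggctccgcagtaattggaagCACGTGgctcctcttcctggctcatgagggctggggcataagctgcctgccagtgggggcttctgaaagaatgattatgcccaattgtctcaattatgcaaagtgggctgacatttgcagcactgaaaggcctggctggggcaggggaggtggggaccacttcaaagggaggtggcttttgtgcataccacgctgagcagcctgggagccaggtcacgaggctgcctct
Dct: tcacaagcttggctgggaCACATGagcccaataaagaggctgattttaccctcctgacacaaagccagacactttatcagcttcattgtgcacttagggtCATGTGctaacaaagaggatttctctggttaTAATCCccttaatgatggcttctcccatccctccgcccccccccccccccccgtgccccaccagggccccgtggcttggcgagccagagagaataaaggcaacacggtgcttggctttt
Tyr: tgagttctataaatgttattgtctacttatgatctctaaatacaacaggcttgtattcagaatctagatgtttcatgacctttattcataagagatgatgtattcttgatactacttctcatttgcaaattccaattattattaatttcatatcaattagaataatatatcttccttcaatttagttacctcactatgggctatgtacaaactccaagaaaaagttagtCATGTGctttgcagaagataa
The Tyrp1 window also held the word. Dct and Trpm1 did not overlap between genotypes, and Tyr and Tyrp1 did, with the word in all of them.

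The 12 lens rows had a higher summed TPM than the 18 photoreceptor and visual cycle rows in each of the 6 libraries. In WT library 1, for example, the sums were 113.9 and 99.3 TPM. This order rested on Cryaa, which alone gave 35.1 to 51.7 TPM of the lens sum. The 8 crystallin rows summed to 94.2, 101 and 113 TPM in the WT libraries and 87.8, 82.98 and 107 TPM in the cKO libraries. A log2 fold change below 0 was found for 6 of the 8 (75%, against 51% of all tested genes). The 8 had a median of −0.35 and adjusted p from 0.494 to 0.863 by edgeR. Cryaa encodes the alpha A crystallin, a small heat shock protein that keeps other lens proteins soluble (ENSMUSG00000024041, chromosome 17, 31677807 to 31681733). It had 37.6, 51.7 and 49.97 TPM in the WT libraries and 35.1, 35.1 and 43.4 TPM in the cKO libraries. In CPM, 2 of 3 cKO values were below all WT values (log2 fold change of −0.32 with SE 0.145, adjusted p = 0.586 by edgeR, 95% interval −0.63 to −0.0016). Gm50222 on the opposite strand shares 13.2% of its exon bases and had 348 to 681 counts, against 1443 to 2306 for Cryaa.

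The beta crystallins are structural proteins of the lens fibre, and 4 of their genes lie on chromosome 5. Cryba4 (ENSMUSG00000066975, 112246493 to 112252518, minus strand) and Crybb1 (ENSMUSG00000029343, 112255815 to 112269585, plus strand) are divergent neighbours with 3296 bases between them. Cryba4 had 15.6, 13.4 and 18.7 TPM in the WT libraries and 11.8, 11.5 and 11.8 TPM in the cKO libraries, and its CPM did not overlap (log2 fold change of −0.47 with SE 0.177, adjusted p = 0.494 by edgeR). Crybb1 had 12.2, 9.06 and 13.5 TPM in the WT libraries and 15.8, 12.4 and 20.5 TPM in the cKO libraries, with 2 of 3 cKO values above all WT values in CPM (log2 fold change of 0.47 with SE 0.216, adjusted p = 0.587 by edgeR). The ratio of Crybb1 to Cryba4 in TPM was 0.675 to 0.782 over the 3 WT libraries and 1.08 to 1.74 over the 3 cKO libraries. Cryba4 was thus the higher of the pair in each WT library and Crybb1 in each cKO library. This pair was singled out after its values were seen, and the ratio is given without a test.

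Their 250-base windows before the start site are shown because the genes lie close together and their estimates are on opposite sides of 0. Cryba4 is at chr5:112252519-112252768 on the minus strand and Crybb1 at chr5:112255570-112255819 on the plus strand. Neither held the word TAATCC or either E-box, so no capitals appear.
Cryba4: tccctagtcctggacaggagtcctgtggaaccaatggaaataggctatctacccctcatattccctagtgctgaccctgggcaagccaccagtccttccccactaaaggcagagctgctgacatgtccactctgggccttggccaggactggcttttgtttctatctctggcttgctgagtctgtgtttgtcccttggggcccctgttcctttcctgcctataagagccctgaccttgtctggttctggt
Crybb1: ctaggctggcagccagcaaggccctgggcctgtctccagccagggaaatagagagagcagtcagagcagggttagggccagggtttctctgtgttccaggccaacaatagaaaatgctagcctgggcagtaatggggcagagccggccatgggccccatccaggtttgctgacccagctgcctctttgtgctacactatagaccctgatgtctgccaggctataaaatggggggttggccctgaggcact
Both windows were poor in CG, with 1 and 2 such dinucleotides in the full 300 bases.

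Crybb2 and Crybb3 lie 788672 bases further along, on the minus strand and 5721 bases apart. Crybb2 had 2.68, 3.61 and 4.29 TPM in the WT libraries and 2.52, 2.26 and 3.37 TPM in the cKO libraries. Crybb3 had 4.34, 3.85 and 4.42 TPM in the WT libraries and 3.26, 3.71 and 4.39 TPM in the cKO libraries. The ratio of Crybb3 to Crybb2 in TPM, 1.03 to 1.62 in WT and 1.29 to 1.64 in cKO, overlapped. Cryba1 had 2.06, 2.83 and 3.05 TPM in the WT libraries and 1.32, 1.59 and 3.27 TPM in the cKO libraries, with the highest value in cKO library 3. Cryba2 had 12.6, 9.32 and 10.2 TPM in the WT libraries and 13.9, 10.7 and 13.8 TPM in the cKO libraries, and was after Crybb1 the other crystallin with a positive log2 fold change, 0.24. Crygs, the gamma S crystallin gene, had 7.08, 7.23 and 8.86 TPM in the WT libraries and 4.07, 5.72 and 6.31 TPM in the cKO libraries. In CPM it did not overlap (log2 fold change of −0.55 with SE 0.240, adjusted p = 0.574 by edgeR), and was described in full after its values were seen.

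Of the membrane and filament genes of the lens fibre, Mip, which encodes the water channel aquaporin 0, had 13.1, 19.4 and 22.9 TPM in the WT libraries and 10.8, 14.2 and 19.9 TPM in the cKO libraries (log2 fold change of −0.33 with SE 0.271, adjusted p = 0.807 by edgeR). It was lowest in WT library 1 and cKO library 1, and its coefficient of variation, 0.234, was above the trend of 0.133. Bfsp1, the gene of the beaded filament protein filensin, had 6.26, 2.59 and 5.33 TPM in the WT libraries and 4.18, 4.80 and 3.91 TPM in the cKO libraries, with the extremes both in WT. The junction protein gene Lim2 had 9, 40 and 13 counts in WT and 28, 31 and 33 counts in cKO libraries under the first model, and 3, 27 and 4 counts in WT and 6, 13 and 23 counts in cKO libraries under the second. The models share 879 exon bases, so their counts are not independent, and 2 of the 3 WT libraries were far below the third.

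The other genes of these pathways, from lists of 70 retina, visual cycle, pigment and lens genes outside the 35 symbols, were read in the same way. Of the 67 tested, 0 were called in either direction by edgeR or limma-voom, and DESeq2 called 0 of the 36 to which it gave an adjusted p. At an unadjusted edgeR p under 0.05, 5 of the 67 (7.46%) were lower and 0 higher, against 4.23% and 4.28% of all tested genes. A log2 fold change below 0 was found for 46 (68.7%, against 51% of all tested genes), and the median of the 67 was −0.15. Every cKO library was below every WT library for 8 of the 67 (11.9%, against 7.28% of all tested genes). Every cKO library was above for 1 (1.49%, against 7.14%). By level they were led by Cryab, the alpha B crystallin gene that many tissues use, at 63.6 TPM, Ttr, the thyroxine and retinol carrier, at 34.3 TPM, and Kit, the receptor of melanocyte and blood precursors, at 28.03 TPM. The smallest p after Mitf was that of Cngb3, the cone channel subunit gene, with 90, 85 and 115 counts in WT and 48, 65 and 50 counts in cKO libraries (log2 fold change of −0.83 with SE 0.275, adjusted p = 0.420 by edgeR). Cryab overlapped between genotypes (log2 fold change of 0.14 with SE 0.0937, adjusted p = 0.738 by edgeR). By list, 21 of 32 retina genes, 5 of 8 visual cycle and pigment epithelium genes, 7 of 11 pigment genes and 13 of 16 tested lens genes were below 0. These shares were 65.6%, 62.5%, 63.6% and 81.2%, against 51% of all tested genes.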

How the data were processed

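Poly(A) RNA of sorted medullary thymic epithelial cells was sequenced with a stranded paired-end kit, per the labels' protocols. The deposited counts per gene were made by the authors with featureCounts 2.0.0 on exons of Ensembl release 99, ignoring strand and assigning a read to every gene it overlaps, per the file headers. Reads were aligned to mm10, and TopHat2 2.1.1, SAMtools 1.9 and Subread 2.0.1 are named, per the submitters' processing notes. The deposited TPM values were made by the authors from the counts and gene lengths of the series table, and were recomputed to within 0.000834%. Of 55385 genes counted, 51810 are in the series table.

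Genes were filtered with filterByExpr and tested with edgeR 4.0.16 (R 4.3.3), with TMM scaling, a robust quasi-likelihood fit of genotype alone on 3 WT and 3 cKO libraries, and Benjamini-Hochberg adjustment over 28543 genes at a threshold of 0.05. DESeq2 1.42.0, limma-voom (limma 3.58.1), other scalings and filters, log2(TPM + pseudocount), the replicate block and leaving out each library were alternatives. At 45457892 to 50128045 counts per library, 3 counts are 0.0598 to 0.066 CPM, and such floors cover counting error only. A member's values are printed for each library at a mean of 10 or more counts (and for Mlana, below it, added after its values were seen), and full statistics for the highest and the smallest-p member of each role. Of the related genes, the 3 highest and the 2 of smallest p are named. The members, lists and rules were chosen with earlier results of these data known. Promoter windows are from RefSeq (GRCm38.p6).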

Additional observations from a re-analysis of the deposited data

How the results depend on the processing

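No eye or pigment gene and no related gene with an adjusted p was called under the 16 alternatives. The lowest adjusted p of an eye or pigment gene was 0.174 (Trpm1 by edgeR, with the replicate block). DESeq2 gave none to 12 of the 35 rows and 31 of the 67 related genes, and the filter of 1 CPM in 3 libraries left out 6 and 19, so these could not be called there. The median log2 fold change of the set lay between −0.31 and −0.13 when 1 library was left out. The number below 0 ranged from 23 (without cKO library 1) to 28 of 35.

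Calls over all genes depended on the method. Against 17, there were 186 with DESeq2, 160 with no filter, 6 without robust estimation, 5 with limma-voom, and 1 each with log2(TPM + 0.1) and log2(TPM + 1). Leaving out 1 library gave 6 to 16 calls: 7 without WT library 1, 6 without WT library 3 and 7 without cKO library 2. The replicate block gave 203. The numbers were not taken to pair the libraries, because the labels do not say what they mark. Same-numbered deviations correlated at 0.113, 0.054 and 0.075, and every library correlated best with its own number. Whether the numbers mark a shared batch was not tested.

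Of 554 member values under the alternatives, 521 kept the sign and 33, in 12 rows, did not. In each of these 12 rows the difference in the main fit was smaller in size than its SE. The cause was not tested. With 1 library left out, the log2 fold change ranged from −0.26 to 0.14 for Gnat1, −0.27 to 0.43 for Pde6b, −0.28 to 0.39 for Pde6g, −0.35 to 0.26 for Cnga1, −0.26 to 0.64 for Guca1a and −0.30 to 0.090 for Sag. It ranged from −0.27 to 0.089 for Aipl1, −0.19 to 0.037 for Nrl, −1.04 to 0.044 for Rpe65, −0.12 to 0.097 for Pmel, −0.22 to 1.94 for the second Lim2 model and −0.44 to 0.074 for Bfsp1. Pde6g was −0.11 with limma-voom, −0.049 with the replicate block and −0.042 with log2(TPM + 0.1). With log2(TPM + 0.1), Gnat1 was 0.0036, Pde6b 0.011 and Pmel 0.015, and with log2(TPM + 1) Pde6b was 0.0025 and Pmel 0.014.

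Depth limits Mlana, Rpe65, Opn1sw and the second Lim2 model, which had means under 15 counts.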
